A study of Mus musculus with 6 samples.

Results

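Enzymes that make, break and interconvert asparagine, aspartate, glutamine and glutamate were examined on 6 microarrays of mouse acute myeloid leukaemia. The set listed 8 genes by name (Asns, Asrgl1, Gls2, Glul, Glud1, Got1, Got2 and Gpt2), and 7 of them were measured among 22180 genes. Gls2, the mitochondrial glutaminase of the liver type, had no probe set named in the annotation used and was not analysed here. All 6 leukaemias carried MLL-AF9, a fusion oncogene that drives acute myeloid leukaemia, on a C57BL/6J background. The labels named 3 arrays WT and 3 Evi1 Tg, for leukaemia cells from wild-type mice and from mice with an Evi1 transgene. Evi1 is a zinc finger transcription factor made from the gene Mecom. Each array read total RNA of 10000 untreated GFP-positive leukaemia cells that had not been fractionated further. The sources used here do not give the transgene's promoter or form, the age of the mice, or whether separate animals stand behind the 3 arrays of a group, so the p-values reflect the spread of these samples alone, which may be technical. By its title the study asks about EVI1 and a changed metabolism in leukaemia, and the design held the single comparison of Evi1 Tg with WT.

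These enzymes move nitrogen and carbon between amino acids and the citric acid cycle. Glutamine carries nitrogen into nucleotides and asparagine, glutamate hands its amino group to oxaloacetate or pyruvate to give aspartate or alanine, and the carbon skeleton left behind enters the cycle as alpha-ketoglutarate. Asparagine synthetase is best known in leukaemia because blast cells that make little of it depend on asparagine from outside, which is the basis of treatment with asparaginase. Its gene is a classical target of ATF4, the transcription factor that responds to a shortage of amino acids.

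ATF4 acts with C/EBP proteins on a composite element in promoters, and the 250 bases before the start site are shown for the 2 measured members that matched it and for Gpt2, which did not match but whose array values lay lower in Evi1 Tg, as those of Asns did. Glul also lay lower and did not match, and its window is not shown. Promoter sequences were found for all 7 measured members in RefSeq (GRCm38.p6) and were searched on both strands for TGATGNAA, where N is any base. Capitals mark the match. The windows lie at chr6:7693210-7693459 (minus strand) for Asns, at chr19:43524606-43524855 (minus strand) for Got1 and at chr8:85492326-85492575 (plus strand) for Gpt2.
Asns: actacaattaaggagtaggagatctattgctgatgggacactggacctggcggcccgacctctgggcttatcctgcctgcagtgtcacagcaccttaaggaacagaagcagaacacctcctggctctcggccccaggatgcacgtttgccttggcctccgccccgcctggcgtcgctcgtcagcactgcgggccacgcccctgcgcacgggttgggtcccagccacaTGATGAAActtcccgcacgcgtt
Got1: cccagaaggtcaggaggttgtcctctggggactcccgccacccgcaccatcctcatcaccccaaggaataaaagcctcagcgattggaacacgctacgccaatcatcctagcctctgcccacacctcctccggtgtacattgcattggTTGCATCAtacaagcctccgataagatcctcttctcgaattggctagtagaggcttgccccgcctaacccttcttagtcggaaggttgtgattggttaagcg
Gpt2: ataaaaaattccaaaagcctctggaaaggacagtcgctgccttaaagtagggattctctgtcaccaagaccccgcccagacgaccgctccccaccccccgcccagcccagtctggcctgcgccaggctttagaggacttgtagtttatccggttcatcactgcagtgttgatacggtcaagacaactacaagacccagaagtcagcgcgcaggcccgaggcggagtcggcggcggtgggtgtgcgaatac
In Asns the match TGATGAAA lay 23 to 16 bases before the start, on the strand of the gene. In Got1 the match was on the opposite strand, 102 to 95 bases before the start, where the gene's own strand reads TTGCATCA. Of 32851 promoter windows of this length, 3.45% held the element. The letters GTTACA (7.07% of windows) and CACGTG, the E-box (6.02%), were found in none of the 7 members' windows. The Asns window ends in gtt, the opening letters of GTTACA, and bases past the start were not searched. A GTTACA that crosses this edge would therefore be missed. CCAAT, present in 33.8% of windows, was found in Glul and Got1. A match describes these letters only and is not evidence of binding, and the array data do not test it.

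No member passed the test over all genes. By limma, at a Benjamini-Hochberg adjusted p under 0.05, 0 of 7 members were called, against 0.113% of all genes, and the adjusted p-values of the members ran from 0.255 to 0.889. At an unadjusted limma p under 0.05 there were 3 members lower in Evi1 Tg (Asns, Glul and Gpt2) and 1 higher (Got2), where 10.3% of all genes lay under that limit (5.8% lower and 4.5% higher). In the same 4 genes the groups did not overlap, which was true of 14.6% of all genes (7.47% lower and 7.08% higher). All 7 members lay above background, set at an intensity of 70.2 (6.13 on the log2 scale) from genes silent in blood cells, and among the genes above background the shares were 17.5% and 19.1%. Differences are log2 values of Evi1 Tg minus WT, and their median over the members was -0.22, beside 0.012 for all genes. The median over the members changed sign, to 0.027, when array WT 3 was left out. The smallest two-sided p that exact permutation allows with 3 arrays a side is 0.1, and those 4 genes reached it.

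Total signal and cell identity were checked before the members. Array medians ran from 5.69 to 5.79 in log2 intensity, and Pearson correlations across genes lay between 0.972 and 0.992. Mecom was at background in every array (5.09 to 5.35 on the log2 scale), so these probes neither bear out nor contradict the labels. All 13 measured myeloid markers lay above background, with 0 of 6 for T cells, 1 of 5 for B cells, 0 of 3 for erythroid cells and 1 of 7 for stroma and endothelium. The myeloid markers were not alike in the groups. Mpo, the myeloperoxidase of granules, read 6.09 to 7.98 in WT and 9.04 to 10.22 in Evi1 Tg on the log2 scale, a difference of 2.80 (SE 0.507, limma adjusted p = 0.139). Elane (0.44), Csf3r (-0.55) and Ptprc (-0.39) also had separate groups, 7 of the 13 lay above 0 and limma called 0. At an unadjusted p under 0.05, 2 were higher and 2 lower, where 4.5% of all genes were higher and 5.8% lower. The part of the marker differences in the values of the members was not tested. Of 7 macrophage markers 3 lay above background (Adgre1, Vcam1 and Mertk), while C1qa, C1qb, C1qc and Timd4 did not. Across all genes WT 3 was about as close to the Evi1 Tg arrays as to the other WT arrays. It correlated at 0.984 with WT 1 and 0.978 with WT 2, which correlated with each other at 0.988. With Evi1 Tg 1, 2 and 3 it correlated at 0.982, 0.981 and 0.985. WT 3 also stood apart from the other WT arrays in genes of cell division. Relative to the mean of all 6 arrays, the median of 29 such genes stood at -0.56 and -0.68 log2 units for WT 1 and WT 2 but at 0.33 for WT 3, and the Evi1 Tg arrays stood at 0.25, 0.28 and 0.37. For this reason values without WT 3 are given beside the counts of the members. Without it 5 of 7 members had an unadjusted limma p under 0.05 (3 lower, 2 higher), against 16.5% of all genes, and 0 had an adjusted p under 0.05. The share of genes above background under that unadjusted p was not computed without WT 3. With all 6 arrays it was 17.5%, against 10.3% of all genes.

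**Figure D1:**
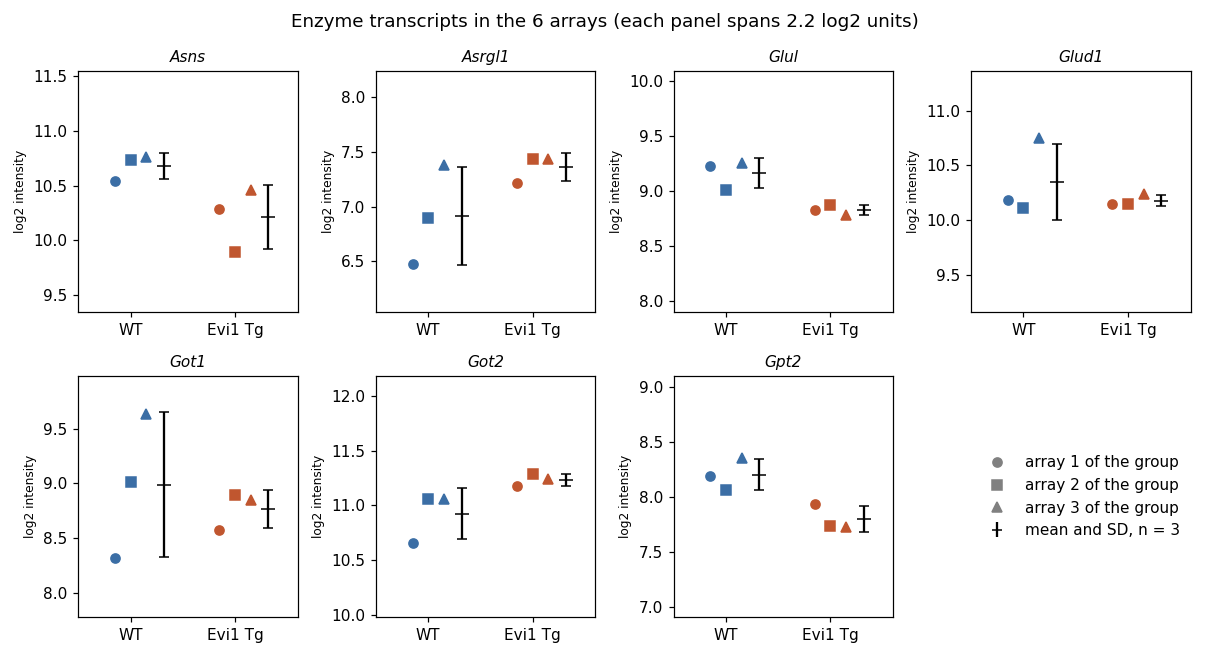
Log2 intensity of the 7 measured enzymes in each array, WT in blue and Evi1 Tg in orange, with the mean and SD of the 3 arrays of a group in black. Circles, squares and triangles are arrays 1, 2 and 3 of a group, and each panel spans the same log2 range around its own mean, so heights are not comparable between panels. The groups are separate in Asns, Glul, Got2 and Gpt2 and overlap in Asrgl1, Glud1 and Got1. In all 7 enzymes WT 3 is the highest WT array.

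Asns, which makes asparagine from aspartate with the amide nitrogen of glutamine, read 10.55, 10.73 and 10.76 on the log2 scale in WT 1, 2 and 3. It read 10.29, 9.90 and 10.46 in Evi1 Tg 1, 2 and 3. Every Evi1 Tg array lay below every WT array, but Evi1 Tg 3 came within 0.086 of WT 1. The means were 10.68 ± 0.12 (SD, n = 3) and 10.21 ± 0.29 (SD, n = 3), a signal in Evi1 Tg of 0.724 times that in WT. The log2 difference was -0.47 (SE 0.153, 95% interval -0.83 to -0.10, limma adjusted p = 0.353). Evi1 Tg 2 was the lowest array, and without it the difference was -0.31. The transcript was well above background in both groups, at intensities of 1640 and 1187.

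Asrgl1, an asparaginase-like enzyme that hydrolyses asparagine and isoaspartyl peptides, was the measured member nearest to background. Its log2 intensity was 6.48, 6.89 and 7.38 in WT 1, 2 and 3. In Evi1 Tg 1, 2 and 3 it was 7.21, 7.43 and 7.44. WT 3 lay inside the range of the Evi1 Tg arrays, while WT 1 and WT 2 lay below all of them. The difference was 0.44 (SE 0.214, 95% interval -0.063 to 0.95, limma adjusted p = 0.550), with an exact two-sided permutation p of 0.2. It was 0.67 without WT 3 (limma adjusted p = 0.0738), the smallest adjusted p of any member under any alternative, and 0.23 without WT 1. Cell division genes were likewise high in WT 3 and in the Evi1 Tg arrays, and their part in the Asrgl1 values was not tested.

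Glul, glutamine synthetase, joins ammonia to glutamate and is strongly expressed in some macrophages. It read 9.23, 9.01 and 9.26 in WT 1, 2 and 3 and 8.83, 8.87 and 8.78 in Evi1 Tg 1, 2 and 3 on the log2 scale. The Evi1 Tg arrays lay close together, with an SD of 0.046 against 0.13 in WT, and all of them below the lowest WT array, WT 2. The difference was -0.34 (SE 0.0941, 95% interval -0.56 to -0.12, limma adjusted p = 0.271), a signal of 0.791 times that in WT. A further Glul probe set lay below background in both groups, at intensities of 40.5 and 41.5, and averaging it with the brighter one gave a difference of -0.15. The summed intensity of the 7 macrophage markers was 1791 to 2510 in WT and 795 to 1922 in Evi1 Tg, ranges that overlap. Of these markers 4 lay above and 3 below 0 (median 0.0044), and the groups were separate for Adgre1 alone (-1.13, SE 0.205, limma adjusted p = 0.139). Vcam1 differed by -1.32 with overlapping groups, and the other 5 by -0.035 to 0.11. The complement genes C1qa, C1qb and C1qc, which define many tissue macrophages, were not above background in either group, and the part of the macrophage markers in the Glul values was not tested. In bulk RNA, fewer cells of a type and less RNA per cell cannot be told apart.

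Glud1, the mitochondrial glutamate dehydrogenase that turns glutamate into alpha-ketoglutarate and ammonia, was even across 5 of the 6 arrays. Its log2 intensity was 10.19, 10.11 and 10.75 in WT 1, 2 and 3. In Evi1 Tg 1, 2 and 3 it was 10.14, 10.15 and 10.24. WT 3 stood above the other 5 arrays. The difference was -0.17 (SE 0.168, 95% interval -0.57 to 0.23, limma adjusted p = 0.823), and it turned to 0.027 without WT 3. Without WT 2 it was -0.29, and with array weights, which count less consistent arrays for less, it was -0.086.

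The aspartate aminotransferases Got1, in the cytosol, and Got2, in the mitochondrion, exchange amino groups between glutamate and aspartate and are the transaminases of the malate-aspartate shuttle. Got1 had the widest spread of the members. It read 8.32, 9.01 and 9.63 in WT 1, 2 and 3, and 8.57, 8.89 and 8.84 in Evi1 Tg 1, 2 and 3. The WT arrays spanned the whole range of the Evi1 Tg arrays and went beyond it on both sides. The difference was -0.22 (SE 0.305, 95% interval -0.94 to 0.50, limma adjusted p = 0.889). It was 0.10 without WT 3, -0.55 without WT 1, -0.12 without Evi1 Tg 1 and -0.026 with array weights, so these arrays give no direction for Got1.

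Got2 was the member with separate groups that lay higher in Evi1 Tg. Its log2 intensity was 10.66, 11.06 and 11.06 in WT 1, 2 and 3. In Evi1 Tg 1, 2 and 3 it was 11.18, 11.28 and 11.24. All Evi1 Tg arrays lay above the highest WT array, by at least 0.12, and WT 1 was lower than the rest. The difference was 0.31 (SE 0.126, 95% interval 0.0090 to 0.60, limma adjusted p = 0.470), a signal of 1.24 times that in WT, and it was 0.17 without WT 1. A further Got2 probe set, close to background at intensities of 60.3 and 73.9, differed by 0.30 and also had separate groups.

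Gpt2, the mitochondrial alanine aminotransferase, passes the amino group of glutamate to pyruvate and is itself known as an ATF4 target. It read 8.19, 8.07 and 8.35 in WT 1, 2 and 3 and 7.94, 7.73 and 7.73 in Evi1 Tg 1, 2 and 3 on the log2 scale. The groups were separate, with Evi1 Tg 1 nearest to WT. The difference was -0.40 (SE 0.108, 95% interval -0.66 to -0.15, limma adjusted p = 0.255), a signal of 0.756 times that in WT. This was the smallest adjusted p of the 7 members with all arrays. The difference stayed between -0.47 and -0.33 when each array was left out in turn.

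**Figure D2:**
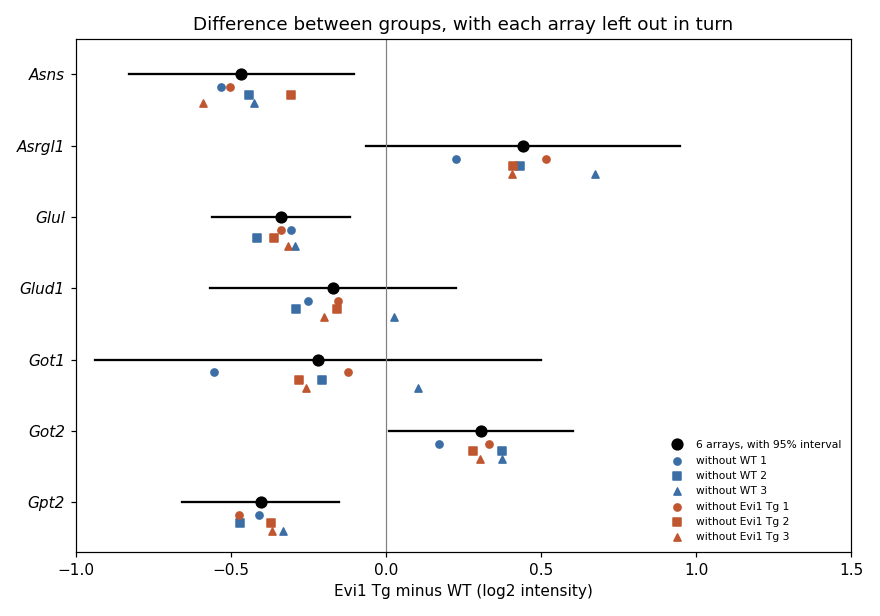
Difference of Evi1 Tg minus WT in log2 intensity for each enzyme, as a black point with its 95% interval from limma, and below it the same difference with 1 array left out (blue for a WT array, orange for an Evi1 Tg array; circle, square and triangle for arrays 1, 2 and 3). Without WT 3 the values of Glud1 and Got1 cross 0, to 0.027 and 0.10, and those of the other 5 genes keep their side of 0 whichever array is left out.

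The arrays themselves differed in which members they carried high. WT 3 was the highest of the 6 arrays for 5 of the 7 members (Asns, Glul, Glud1, Got1 and Gpt2), and this was so for 31.3% of all genes above background. The deviation of WT 3 from the mean of the 6 arrays was 0.76 for Got1, 0.48 for Glud1, 0.35 for Gpt2, 0.31 for Asns and 0.26 for Glul. WT 1 was the lowest array for Asrgl1 (-0.66), Got1 (-0.56) and Got2 (-0.42). For 6 of the 7 members the SD over WT arrays exceeded that over Evi1 Tg arrays, with Asns as the exception, and 66.6% of genes above background had the larger SD in WT.

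**Figure D3:**
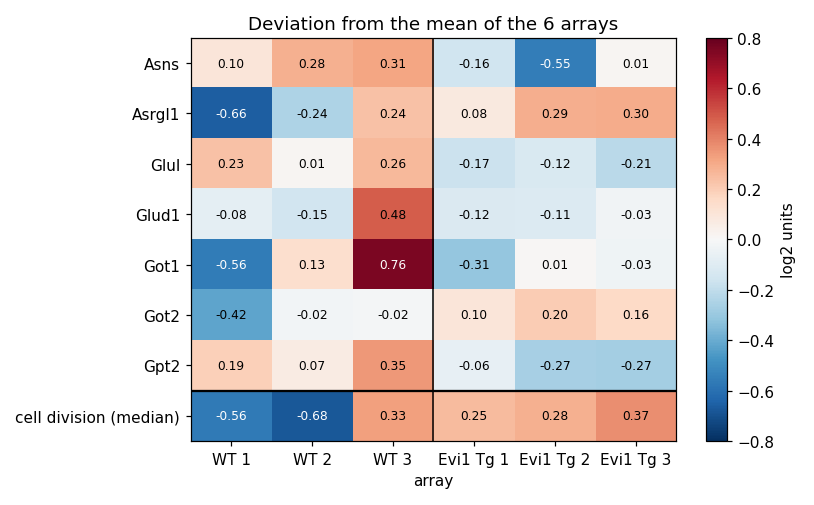
Deviation of each array from the mean of the 6 arrays, in log2 units, for the 7 enzymes and, in the bottom row, the median over 29 genes of cell division. The columns are WT 1 to 3 and Evi1 Tg 1 to 3, red is above and blue below the mean. In Got1 the WT arrays run from -0.56 to 0.76, while in cell division WT 3 (0.33) lies with the Evi1 Tg arrays.

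Members were then compared with each other within arrays, which asks whether 2 enzymes differed unequally between the groups. Of 4 pairs compared, 3 had separate groups and reached the smallest possible exact two-sided permutation p of 0.1, which is 0.133 after Benjamini-Hochberg adjustment over the pairs. The share of separate groups among ratios of other gene pairs was not computed, so this count has no background beside it. The ratio of Asns over Asrgl1, asparagine synthesis over hydrolysis, differed by -0.91 on the log2 scale. Centred on the mean of the 6 arrays it was 0.76, 0.53 and 0.078 in WT 1, 2 and 3 and -0.24, -0.84 and -0.28 in Evi1 Tg 1, 2 and 3, so that WT 3 lay nearest to the Evi1 Tg arrays. The ratio of Gpt2 over Got2, which compares the alanine with the aspartate transaminase of the mitochondrion, was 0.61, 0.085 and 0.37 in the WT arrays. The Evi1 Tg arrays had -0.16, -0.47 and -0.43, a difference of -0.71. The separation of this ratio was fixed beforehand, as every Evi1 Tg array lay below WT in Gpt2 and above WT in Got2. Its exact p therefore adds nothing to the values of the single genes. The ratio of Got2 over Got1, mitochondrial over cytosolic, was 0.14, -0.15 and -0.77 in the WT arrays, with the Evi1 Tg arrays at 0.41, 0.19 and 0.19. Its difference was 0.53, and 0.27 without WT 3. With the mean over both Got2 probe sets the exact p of this pair was 0.3, so the groups then overlapped. Asns over Glul did not separate the groups, with a difference of -0.13 and an exact permutation p of 0.6. The planned comparison of Glul with Gls2 was not made, as Gls2 was not measured.

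**Figure D4:**
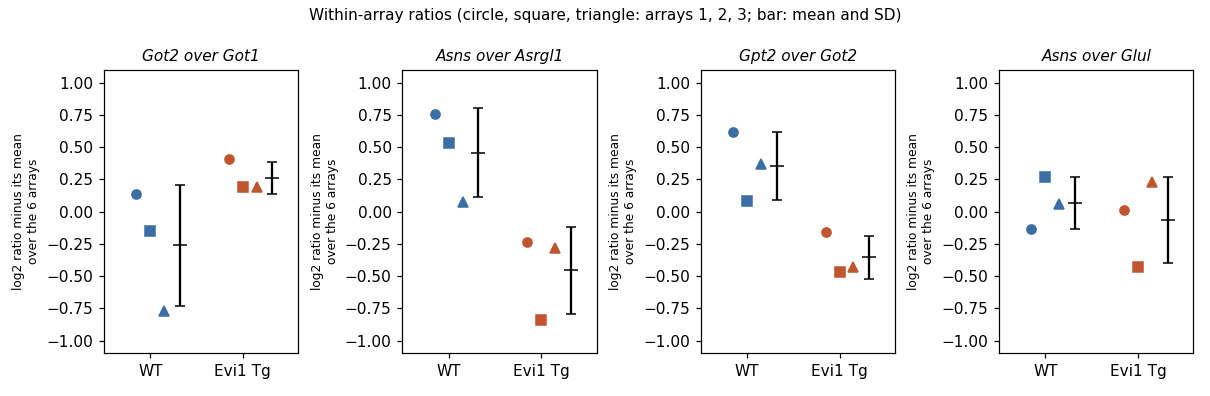
Log2 ratio of 2 enzymes within each array, minus its mean over the 6 arrays, for 4 pairs. WT arrays are blue and Evi1 Tg arrays orange (circle, square and triangle for arrays 1, 2 and 3), with the mean and SD of each group in black. The groups are separate for Got2 over Got1, Asns over Asrgl1 and Gpt2 over Got2, and overlap for Asns over Glul.

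Other enzymes that use or make the same amino acids showed no common direction. Of 38 listed, 35 were measured and 24 lay above background. By limma 0 of the 35 were called. At an unadjusted p under 0.05, 0 were higher and 4 lower, where 4.5% of all genes were higher and 5.8% lower. Of the 35, 20 lay above and 15 below 0 (median 0.025). The genes with separate groups and the smallest p were Kyat1 (-0.27, below background in both groups), an aminotransferase that acts on glutamine, Ctps2 (-0.21), which makes CTP with glutamine nitrogen, and Gclm (-0.31), a subunit of the enzyme that joins glutamate to cysteine. Bcat2, the mitochondrial branched-chain aminotransferase, differed by 0.15. The catalytic partner of Gclm, Gclc, had a larger difference of -0.75 (SE 0.301) with overlapping groups. Argininosuccinate synthetase Ass1, which consumes aspartate, had a difference of 0.013, and the asparaginase Aspg, at background, one of -0.0060.

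Carriers of these amino acids pointed both ways. All 22 listed were measured, 15 lay above background and limma called 0. At an unadjusted p under 0.05, 3 were higher and 4 lower, where 4.5% of all genes were higher and 5.8% lower. Of genes above background 17.5% lay under it in either direction. The median difference of the list was 0.0021. Slc1a5, a main importer of glutamine, read 9.23, 9.18 and 9.88 in WT 1, 2 and 3 and 9.89, 9.95 and 10.01 in Evi1 Tg 1, 2 and 3, a difference of 0.51 (SE 0.184, limma adjusted p = 0.395). The groups were barely separate, as WT 3 lay next to the Evi1 Tg arrays. Slc38a1, another glutamine importer, differed by 0.40 (SE 0.116), also with separate groups. Slc1a4, a carrier of neutral amino acids, differed by -0.45, close to background in Evi1 Tg, and the cystine and glutamate exchanger Slc7a11 by -0.49 with overlapping groups. The glutamate carrier Slc1a3 differed by 0.48 but was below background in both groups. The aspartate and glutamate carriers of the mitochondrion, Slc25a12 and Slc25a13, had differences of -0.10 and -0.18.

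Genes of ATF4 and amino acid shortage, a pathway known to regulate Asns, lay mostly lower in Evi1 Tg. Of 23 genes 18 were below 0, with a median of -0.20, and by limma 0 were called, 8 were lower and 2 higher at an unadjusted p under 0.05. Over all genes 53.5% lay above 0, and 5.8% were lower and 4.5% higher at that unadjusted p. Of the 23 genes 21 lay above background, and 17.5% of all genes above background had that p in either direction. Atf4 itself had a difference of -0.21 and Eif2ak4, a sensor of uncharged tRNA that acts upstream of it, one of -0.23, each with separate groups. Chac1, which degrades glutathione, differed by -0.45 (SE 0.101), Sesn2, a leucine sensor, by -0.94 (SE 0.134) and Ddit4, an inhibitor of mTORC1, by -0.74 (SE 0.0932). Serine synthesis genes that ATF4 also controls pointed the other way, with 0.43 for Phgdh and 0.15 for Psph, and the mitochondrial enzyme Shmt2, which converts serine to glycine, differed by 0.78 (SE 0.237). Psat1, which draws its amino group from glutamate, had a difference of 0.025. The median of the list was -0.17 without WT 3. The list was chosen with earlier results of these data known, and its part in the Asns values was not tested.

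Enzymes next to these reactions in the citric acid cycle and the malate shuttle were measured for 13 of 14 genes, and limma called 0 of them. At an unadjusted p under 0.05, 2 were higher and 3 lower, where 4.5% of all genes were higher and 5.8% lower. Of genes above background 17.5% lay under it in either direction. The median of the list was 0.054. The NADP-dependent isocitrate dehydrogenases differed in sign, with 0.35 (SE 0.0767) for the mitochondrial Idh2 and -0.57 (SE 0.151) for the cytosolic Idh1. The malic enzymes did so too, with 0.39 for the mitochondrial Me2 and -1.13 (SE 0.254) for the cytosolic Me1. Pcx, pyruvate carboxylase, which supplies oxaloacetate for aspartate, differed by -0.45, close to background in Evi1 Tg. The malate dehydrogenases Mdh1 and Mdh2, which complete the shuttle with Got1 and Got2, had differences of 0.23 and 0.054 with overlapping groups. Among 8 of 10 measured genes for charging tRNA with these amino acids, limma called 0 and 1 lay under an unadjusted p of 0.05, Gatc (0.41), a subunit of the mitochondrial amidotransferase that makes glutaminyl-tRNA. Nars, the asparaginyl-tRNA synthetase, had a difference of -0.16.

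**Figure D5:**
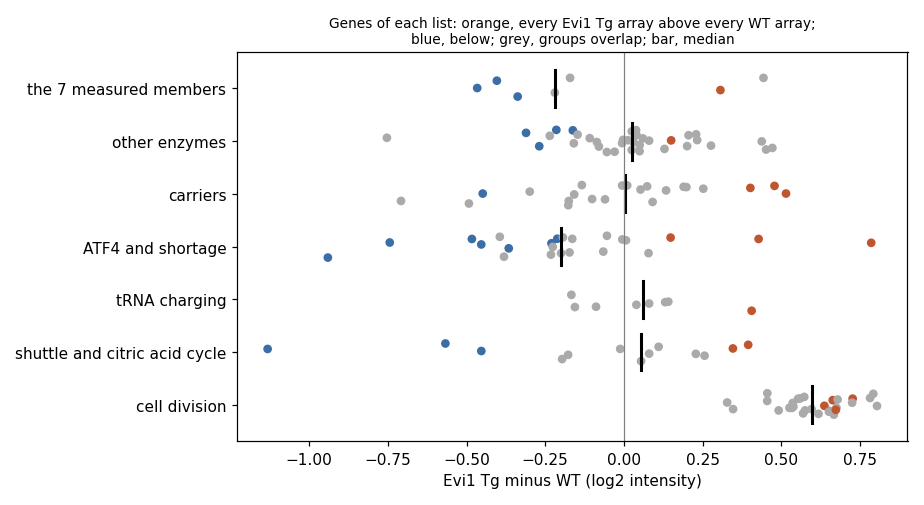
Difference of Evi1 Tg minus WT in log2 intensity for each measured gene of the 7 enzymes, of 5 lists of related genes and of cell division, with the median of each list as a black bar. Orange genes have every Evi1 Tg array above every WT array, blue genes below, and grey genes overlap. The medians are -0.22 for the members and -0.20 for ATF4 and amino acid shortage. They lie between 0.0021 and 0.060 for the other 4 related lists. In cell division the median is 0.60 and all 29 genes lie above 0. Without WT 3 the medians are 0.027 for the members, -0.17 for ATF4 and amino acid shortage and 0.93 for cell division. Limma called 0 of the 29 cell division genes. At an unadjusted limma p under 0.05, 13 of them were higher, against 4.5% of all genes. In 4 of them the groups are separate, against 7.08% of all genes in that direction.

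The genes most like Asns across the 6 arrays were Cdc42bpa, Usp32, G0s2, Jmjd8 and Ralb. Their Pearson correlations with Asns were 0.994, 0.992, 0.991, 0.990 and 0.989, the highest of 10282 genes above background, over 6 arrays that share the difference between the groups. Each of them was low in Evi1 Tg 2, as Asns was. None of the members was among them. Gpt2 (r = 0.748) and Glul (r = 0.606) were the members nearest to Asns, while Got2 (r = -0.491) and Asrgl1 (r = -0.373) had negative values. These values include the difference between the groups. From WT 1 to WT 3 Asns, Got2 and Asrgl1 all rose, while from Evi1 Tg 1 to Evi1 Tg 2 Asns fell and Got2 and Asrgl1 rose.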

How the data were processed

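The authors deposited a table of probe set intensity values on a linear scale (maximum 14719) for 6 arrays of biotin-labelled cDNA, prepared by the GeneChip WT PLUS reagents, per the labels. How the intensities were background corrected, normalized and summarised is stated in none of the labels, though close array medians point to values already normalized between arrays, which can hide a shift shared by most genes.

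Intensities were log2 transformed with no pseudocount. Of 34351 probe sets, 23521 had 1 gene symbol, 1814 several and 9016 none in the platform annotation. For a gene with several single-symbol probe sets the one with the highest mean was used, as for Glul and Got2. Background was the 90th percentile of mean log2 values of 63 measured genes silent in blood cells. The groups were compared in R 4.3.3 with limma 3.58.1 (lmFit, eBayes), and p-values were adjusted by Benjamini-Hochberg over 22180 genes. Single values were also tested by exact permutation in scipy 1.17.1. Simulated data for this comparison, with 200 of 22180 genes changed, gave recovery of 72% at 2-fold and 97% at 4-fold, with 6 unchanged genes called. Members and lists were chosen with earlier results of these data known. Related genes were named by the smallest p with separate groups, up to 3 per direction and list; Gclc, Ass1, Aspg, Slc7a11, Slc25a12, Slc25a13, Atf4, Eif2ak4, Psat1, Mdh1, Mdh2 and Nars were added after their values were seen. Alternatives were quantile normalization, median centring, array weights, a filter on dim genes, a replicate block, eBayes with trend and robust variance, averaged or other probe sets, averaging Evi1 Tg 1 and 2, and leaving out each array. Counts of members under each were added after seeing the data. Figures used matplotlib 3.10.9.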

Additional observations from a re-analysis of the deposited data

How the results depend on the processing

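No member passed an adjusted p of 0.05 in limma under any of 100 combinations of member and alternative (smallest 0.0738, Asrgl1 without WT 3), and 97 kept the direction of the difference. The exceptions were the dim Glul probe set (0.037), Glud1, which ran from -0.29 to 0.027 when each array was left out, and Got1, from -0.55 to 0.10. Part of the 100 could not change direction. The filter on dim genes, the trend and robust settings and the replicate block leave the difference itself as it was. Averaging probe sets does so too for members other than Glul and Got2. Of 36 values of pairs, 35 kept their direction, though averaging probe sets could not change Asns over Asrgl1. Asns over Glul ran from -0.27 to 0.054 when each array was left out and was -0.32 with the mean over probe sets. The number of members with an unadjusted p under 0.05 lay between 3 and 5 over the alternatives. Over all genes, limma called 2 higher and 23 lower. Called genes numbered 32 higher and 82 lower with array weights, 7 and 35 with dim genes left out, and 0 and 6 with Evi1 Tg 1 and 2 averaged. With trend and robust settings 6 were higher. Leaving out each array in turn gave 0 to 383 higher and 2 to 173 lower, both highest without WT 3. With the replicate number as a block there were 0 higher and 9 lower genes and no member was called. Whether the numbers pair the samples is not stated. Deviations of same-numbered arrays correlated at 0.19, -0.18 and 0.061, and those of other-numbered arrays at -0.23 to 0.12. Correlations over so few arrays cannot decide it. The simulated data held changes of 2-fold and 4-fold, and recovery of changes as small as those of the members was not simulated.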
